A study of Homo sapiens and Homo sapiens
Mus musculus with 19 samples.

Results

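This account covers 9 genes of growth factor signaling in neuroblastoma (NB): the receptor tyrosine kinases ALK and RET, the RET co-receptors GFRA1, GFRA2 and GFRA3, the neurotrophin receptors NTRK2 (TrkB), NTRK3 (TrkC) and NGFR (p75NTR), and SORT1 (sortilin). They were chosen by symbol, not by their values, and all 9 were found among the 57820 human genes of the count table. The cells are SK-N-Be2c, an established human NB line, as 3 Control clones (wild-type in the labels) and 3 sgTWIST1 clones, in which TWIST1 had been knocked out with CRISPR/Cas9. The same Control and sgTWIST1 line was grown in the left adrenal gland of athymic Swiss nude mice, which lack mature T cells, and gave 4 Control and 4 sgTWIST1 ortho_1 tumors taken at a volume of 1000 cubic millimetres. Tumors were collected by size and not at a fixed time, and all groups derive from 1 cell line. No agent was studied as a treatment, but by the methods of the study the mice received isoflurane and paracetamol for surgery. The labels tie no tumor to a clone, and p values therefore measure the spread between these clones or tumors only.

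ALK is a receptor tyrosine kinase that is active in part of NB, through mutation or amplification, and its ligands are ALKAL1 and ALKAL2, while pleiotrophin (PTN) and midkine (MDK) have been described as further ligands. RET is the shared signaling receptor of the GDNF family, and it needs a GFRA co-receptor that sets the ligand: GFRA1 binds GDNF, GFRA2 neurturin (NRTN) and GFRA3 artemin (ARTN). Of the Trk receptors, NTRK2 binds BDNF and NTF4, and NTRK3 binds NTF3. NGFR binds all mature neurotrophins and, together with sortilin, their unprocessed precursors, and it is also known as a marker of neural crest and Schwann cells.

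Total human counts ranged from 21695694 to 45789590 per clone and from 21426499 to 49990985 per tumor. Levels are given below as CPM, the counts per 1e6 counts in the tested genes after TMM scaling, and as RPKM, the same value per kilobase of exon, where genes are compared with each other. On the CPM scale 3 counts stand for 0.0796 to 0.162 in cells and 0.0807 to 0.180 in tumors. Control tumor 3 and sgTWIST1 tumor 4 stand apart from the other tumors: 30107 and 30733 genes had a count in them, against 40401 to 45192 in the other 6, and the RNA gene RN7SL1 took 16.2% and 11.3% of their counts. All 10 noradrenergic NB markers examined, HAND2 and DBH among them, passed the expression threshold, with summed levels of 3974 to 7305 CPM in Control cells, 2530 to 3781 in sgTWIST1 cells, 4220 to 5269 in Control tumors and 2376 to 3171 in sgTWIST1 tumors. CHGA alone, which was not called, was at 1422 to 3393 CPM in Control and 1521 to 2601 CPM in sgTWIST1 cells. In cells 6 of the 10 were called higher in Control and 0 lower, against 14.5% of all tested genes called. In tumors 4 were called higher and 1 lower, GATA3 (log2(FC) -2.22), against 14.3%. Of 5 endothelial and leukocyte markers 4 were found, with summed levels of 3.06 to 6.58 CPM in Control cells, 6.56 to 15.4 in sgTWIST1 cells, 5.06 to 13.5 in Control tumors and 6.19 to 25.5 in sgTWIST1 tumors. KDR and PTPRC were at or under 2.85 CPM in every sample and were not tested, while CD68 was called lower in Control cells (log2(FC) -2.18) and CDH5 in Control tumors (-1.35). TWIST1 transcript was lower in every sgTWIST1 sample than in every Control sample of the same kind, with 62.0 to 73.5 CPM in Control cells against 22.8 to 33.8 in sgTWIST1 cells, and 85.0 to 104 against 24.9 to 48.6 CPM in tumors.

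Of the 9 receptors 6 met the expression threshold, log2 RPKM above 1 in at least 1 column, and were tested: ALK, RET, GFRA2, GFRA3, NGFR and SORT1. The other 3, NTRK2, NTRK3 and GFRA1, reached at most 0.176, 0.261 and 0.337 RPKM in any column and are described without entering the counts. For this threshold RPKM was taken per total human counts of each of the 19 columns, where a batch of a clone has a column of its own, and it is therefore lower than the levels below, which rest on the tested genes and TMM. Per length, RET was the most abundant receptor in all 4 groups, with 166 ± 68.0 RPKM in Control cells (SD, n = 3), 96.2 ± 3.20 in sgTWIST1 cells (n = 3), 66.5 ± 17.3 in Control tumors (n = 4) and 84.0 ± 16.3 in sgTWIST1 tumors (n = 4). The receptor in the second place was SORT1 in both groups of cells and in sgTWIST1 tumors, and GFRA3 in Control tumors. In Control cells the order after RET was SORT1 (15.5 ± 4.16 RPKM), GFRA2 (4.68 ± 2.07), ALK (0.926 ± 0.197), NGFR (0.834 ± 0.798), NTRK3 (0.304 ± 0.0347), GFRA3 (0.203 ± 0.0346), GFRA1 (0.112 ± 0.0102) and NTRK2 (0.0494 ± 0.0141), where the ranges of ALK and NGFR and of NGFR and NTRK3 overlapped. The order and the threshold depend on the length used, which spans all annotated exons of a gene. It was 26773 bases for NTRK3 and 33162 for NTRK2, against 7382 for ALK and 4141 for NGFR. Without division by length NTRK3 had a mean of 8.14 CPM in Control cells, against 6.84 for ALK and 3.45 for NGFR. In sgTWIST1 cells NGFR stood next to SORT1, with a mean of 8.86 against 9.82 RPKM and overlapping ranges, and GFRA2 lay below ALK, with 0.229 ± 0.0617 against 1.77 ± 0.439 RPKM. In Control tumors GFRA3 (20.6 ± 2.13 RPKM) lay above SORT1 (14.2 ± 2.79) and ALK (9.34 ± 1.08), and the ranges of SORT1 and ALK overlapped. In sgTWIST1 tumors SORT1 (23.5 ± 1.19 RPKM) was followed by NGFR (11.7 ± 3.57), ALK (6.80 ± 1.22) and GFRA3 (3.84 to 7.68 over the 4 tumors), neighbours whose ranges overlapped from NGFR to GFRA3.

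**Figure D1:**
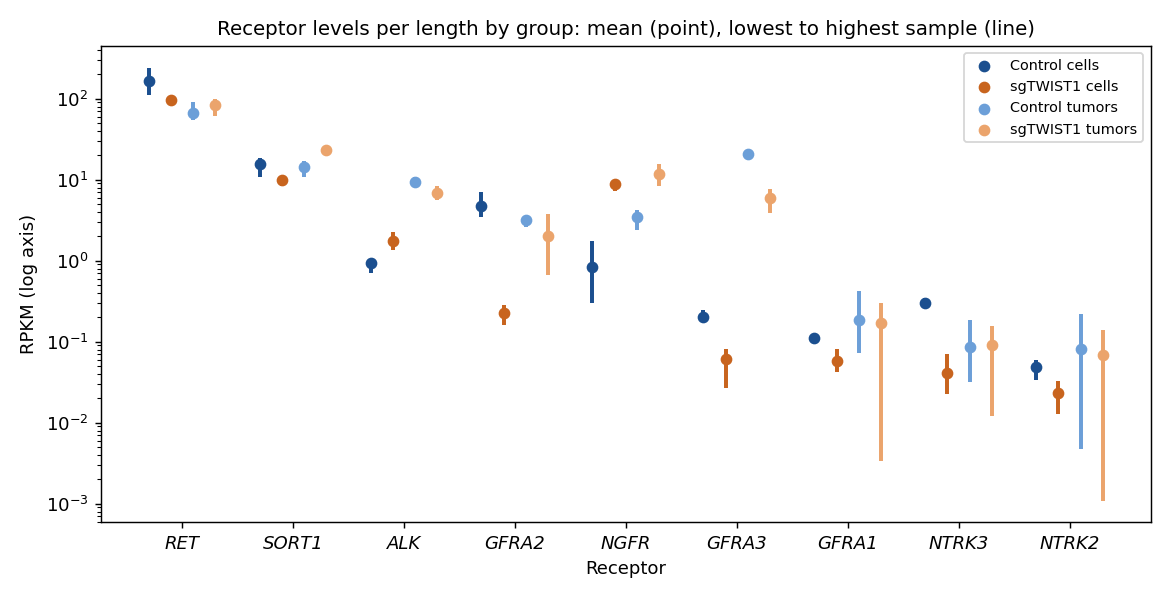
Level per length (RPKM, log axis) of the 9 receptors in the 4 groups, with points for group means and lines from the lowest to the highest sample (3 clones or 4 tumors). RET lies highest in every group, GFRA3 spans the widest range of group means between cells and tumors, and GFRA1, NTRK3 and NTRK2 stay below 1 RPKM throughout.

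TWIST1 is a basic helix-loop-helix factor that binds E-boxes (CANNTG, which reads the same on both strands). The 250 bases upstream of the start are therefore shown for GFRA3, ALK and SORT1, which differed between the genotypes in tumors or in how cells and tumors compared, as described below. They are from RefSeq (GRCh38.p14, a build other than that of the counts), where 7 of the 9 receptors have an entry, all but GFRA2 and NGFR. The windows are chr5:138274622-138274871 for GFRA3, chr2:29921587-29921836 for ALK and chr1:109397919-109398168 for SORT1, each on the minus strand and written 5′ to 3′, with E-boxes in capitals, and where a gene has several starts the outermost was taken.
GFRA3: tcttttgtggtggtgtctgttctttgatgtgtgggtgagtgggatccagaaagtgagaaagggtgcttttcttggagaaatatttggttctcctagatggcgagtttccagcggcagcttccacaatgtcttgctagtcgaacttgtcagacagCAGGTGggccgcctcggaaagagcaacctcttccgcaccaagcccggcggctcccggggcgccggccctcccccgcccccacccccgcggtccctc
ALK: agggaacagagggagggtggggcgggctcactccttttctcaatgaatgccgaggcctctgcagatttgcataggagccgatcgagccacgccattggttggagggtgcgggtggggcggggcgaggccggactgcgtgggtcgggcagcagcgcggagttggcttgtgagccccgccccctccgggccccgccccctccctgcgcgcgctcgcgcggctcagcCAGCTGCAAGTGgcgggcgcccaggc
SORT1: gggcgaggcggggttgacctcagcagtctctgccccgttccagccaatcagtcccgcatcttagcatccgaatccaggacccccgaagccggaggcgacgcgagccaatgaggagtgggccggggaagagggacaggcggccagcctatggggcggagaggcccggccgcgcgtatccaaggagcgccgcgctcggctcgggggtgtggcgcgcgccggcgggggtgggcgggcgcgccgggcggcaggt
The GFRA3 window holds 1 E-box, CAGGTG, which begins 96 bases upstream of the start. The ALK window holds 2 adjoining E-boxes, which begin 26 and 20 bases upstream, and the SORT1 window holds none. Of 35116 promoter windows of this length 61.8% hold at least 1 E-box and 12.2% hold CATCTG or its reverse complement CAGATG, which none of the 3 windows holds. These matches describe the letters only, and no binding was measured.

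Between the genotypes 3 of the tested receptors passed the thresholds in cells or in tumors. NGFR was called lower in Control than in sgTWIST1 in both, GFRA2 was called higher in Control cells, and GFRA3 was called higher in Control tumors. All adjusted p values are from edgeR's quasi-likelihood test with Benjamini-Hochberg adjustment over 10888 genes in cells and 10889 in tumors. A gene was called where the adjusted p was under 0.05 and log2(FC), Control relative to sgTWIST1, was at least 1 or at most -1. In cells 2 of the 6 receptors were called, against 14.5% of all tested genes, 1 of them higher in Control (8.28% of all) and 1 lower (6.25%). In tumors 2 of the 6 were called, against 14.3% of all tested genes, again 1 higher in Control (6.81% of all) and 1 lower (7.47%). With 6 genes, no statement about the receptors as a class rests on these counts. The median absolute log2(FC) was 1.36 over the 6 receptors and 0.39 over all tested genes in cells, and 0.70 and 0.38 in tumors.

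**Figure D2:**
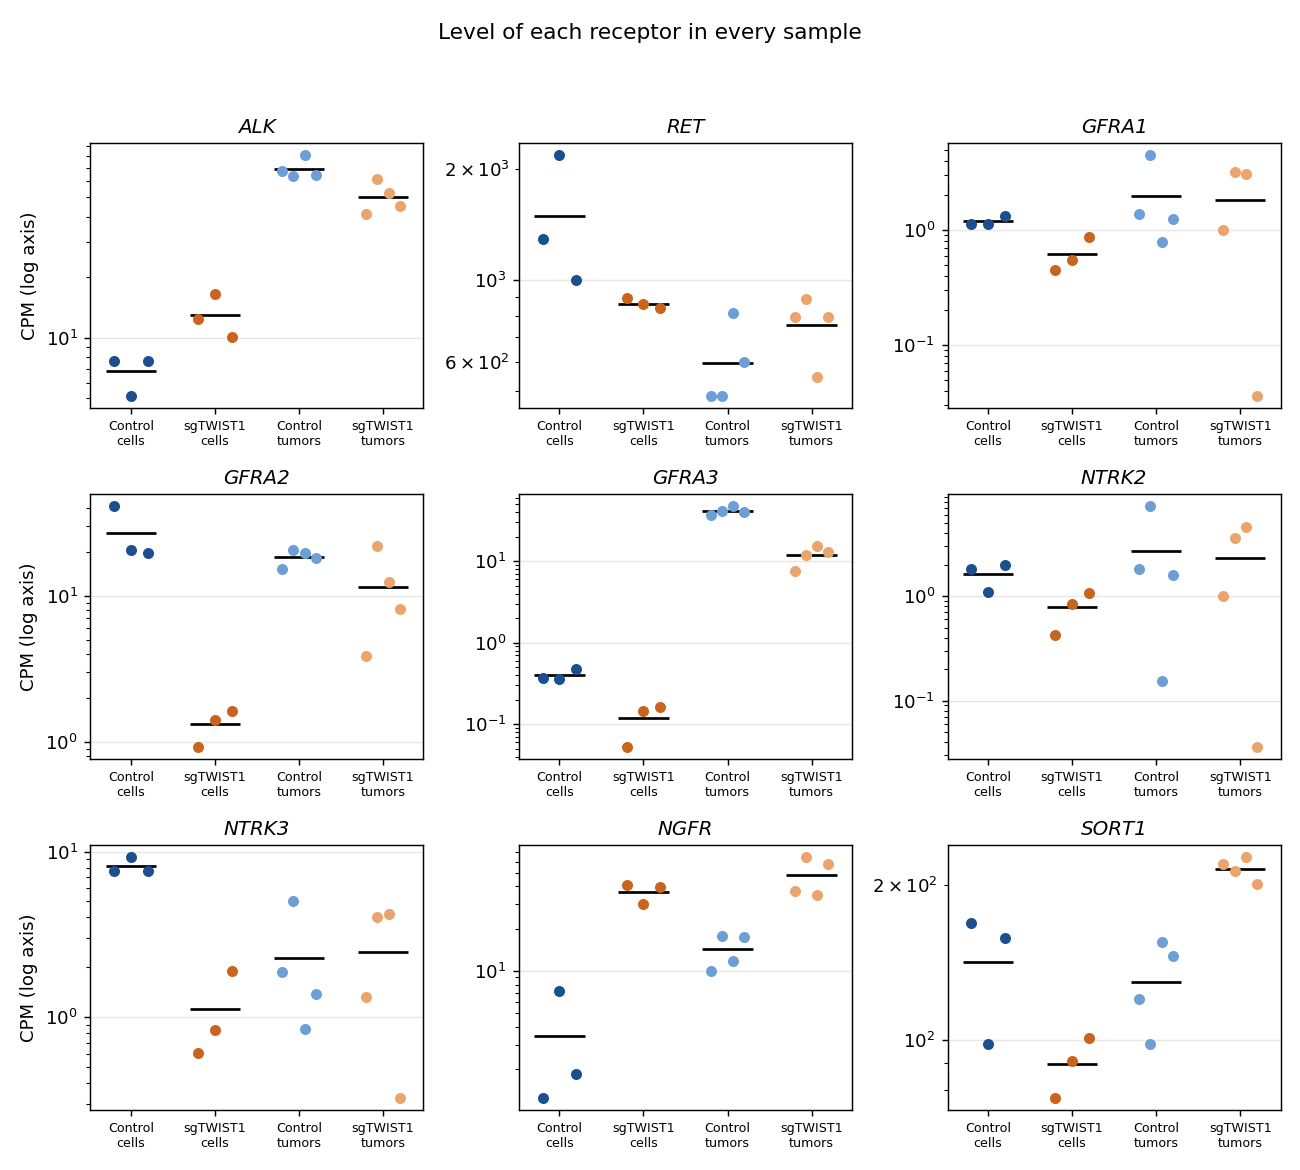
CPM (log axis, with its own range in each panel) of the 9 receptors in every sample of the 4 groups, where each point is a clone or a tumor and the bar is the group mean. NGFR is higher in all sgTWIST1 than in all Control samples of the same kind, GFRA2 separates the genotypes in cells but not in tumors, and NTRK2, NTRK3 and GFRA1 spread widely among tumors.

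NGFR, the low-affinity neurotrophin receptor, was measured at 1.26, 7.25 and 1.84 CPM in Control clones 1 to 3 and at 41.1, 29.7 and 39.3 CPM in sgTWIST1 clones 1 to 3. All sgTWIST1 clones were above all Control clones, and Control clone 2 lay above the other 2 Control clones. The mean was 10.6 times higher in sgTWIST1 cells, with a log2(FC) of -3.40 (SE 0.62, adjusted p = 0.00547). In tumors NGFR was at 9.99, 17.7, 11.8 and 17.5 CPM in Control and at 37.1, 64.1, 34.5 and 57.7 CPM in sgTWIST1, again without overlap. The sgTWIST1 mean was 3.39 times the Control mean here, and log2(FC) was -1.75 (SE 0.26, adjusted p = 0.000372). A gene on the other strand that overlaps NGFR had at most 17 counts in any sample. Groups that do not overlap were found for 53.2% of all tested genes in cells and for 44.3% in tumors. Control clone 2 sets the size of the difference in cells, where log2(FC) was -4.58 without it, and the call held with any replicate left out. The effect in tumors minus the effect in cells was 1.64 (SE 0.62, adjusted p = 0.0983) and did not pass the test, but was 2.83 and called without Control clone 2.

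NGFR also marks Schwann cells, and the human counts of a tumor can hold reads that match both organisms. Of 8 Schwann markers 3 passed the expression threshold, their summed level over the list was 9.37 to 37.2 CPM in Control and 24.9 to 51.3 CPM in sgTWIST1 tumors, and SOX10, the defining factor, reached 5.53 CPM at most in Control and 2.94 CPM in sgTWIST1 tumors. The list was at 11.5 to 19.8 CPM in Control and 12.6 to 24.7 CPM in sgTWIST1 cells. Among mesenchymal markers VIM (vimentin) moved in the direction of NGFR, from 147 to 225 CPM in Control against 1018 to 1641 CPM in sgTWIST1 cells and from 7.41 to 26.1 against 521 to 951 CPM in tumors, and SNAI2 did so in cells, from 2.31 to 5.13 CPM in Control against 8.72 to 11.1 CPM in sgTWIST1 cells. Both were called lower in Control cells and VIM also in Control tumors, where SNAI2 had a log2(FC) of -0.72 and did not pass the test (adjusted p = 0.208). The other 4 genes of that list were not tested and had at most 30.8 CPM in any sample. In cells they lay in the opposite direction to NGFR. FN1, YAP1 and COL1A1 were higher in every Control clone than in every sgTWIST1 clone. FN1 was at 5.95 to 10.6 CPM in Control against 3.23 to 4.87 CPM in sgTWIST1 cells. PRRX1 also had the higher range in Control cells, but with overlap. In tumors the ranges of all 4 overlapped between the genotypes. Of the 3 tested Schwann markers 1 was called lower in Control in cells and 1 in tumors, the latter ERBB3 (-1.64). Whether these markers have a part in the NGFR difference was not tested, and in bulk RNA more cells of a type and more RNA per cell cannot be told apart. The murine counterpart Ngfr had 0 to 127 counts per tumor, with the highest value in Control tumor 3, and made up at most 25.1% of the NGFR counts of both organisms.

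SORT1, the sorting receptor that joins NGFR in binding precursor neurotrophins, did not follow a common direction. It was at 169, 98.1 and 158 CPM in Control clones 1 to 3 and at 77.2, 90.8 and 101 CPM in sgTWIST1 clones 1 to 3, so that the groups overlapped through Control clone 2. The value of log2(FC) among clones was 0.66 (SE 0.22, adjusted p = 0.0485), under the fold threshold. In tumors SORT1 was at 120, 98.4, 155 and 146 CPM in Control and at 219, 212, 226 and 201 CPM in sgTWIST1, without overlap. There log2(FC) was -0.71 (SE 0.13, adjusted p = 0.00170), a mean 1.65 times higher in sgTWIST1, which also stayed under the fold threshold. The difference between the genotype effects was itself called, at -1.38 (SE 0.26, adjusted p = 0.00327). Murine Sort1 had 45 to 847 counts and was 2.05% to 14.6% of the counts of both organisms.

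RET was at 1288, 2172 and 1002 CPM in Control clones 1 to 3 and at 894, 858 and 837 CPM in sgTWIST1 clones 1 to 3. All Control clones were above all sgTWIST1 clones, but the log2(FC) of 0.78 (SE 0.27, adjusted p = 0.0577) did not pass the test, and it was 0.40 without Control clone 2. In tumors RET was at 486, 486, 815 and 600 CPM in Control and at 794, 886, 545 and 791 CPM in sgTWIST1, with overlap and a log2(FC) of -0.32 (SE 0.20, adjusted p = 0.214). The difference of the genotype effects was -1.12 (SE 0.35, adjusted p = 0.0514), at the edge of the threshold. It was called without the 2 tumor libraries that stand apart (-1.29), and also without Control clone 1 (-1.22), Control clone 3 (-1.33), Control tumor 3 (-1.31) or sgTWIST1 tumor 3 (-1.25), and its adjusted p ranged from 0.0126 to 0.509 over all alternatives.

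Of the RET co-receptors, GFRA2 was called higher in Control cells. It was at 40.8, 20.6 and 19.8 CPM in Control clones 1 to 3 and at 0.929, 1.41 and 1.62 CPM in sgTWIST1 clones 1 to 3. The mean was 20.5 times higher in Control, with a log2(FC) of 4.38 (SE 0.40, adjusted p = 0.000276). In tumors it was at 15.3, 20.6, 19.5 and 18.2 CPM in Control and at 3.87, 21.9, 12.4 and 8.11 CPM in sgTWIST1. Here the groups overlapped, since sgTWIST1 tumor 2 was above all Control tumors, and log2(FC) was 0.70 (SE 0.41, adjusted p = 0.191). Without sgTWIST1 tumor 2 it was 1.21 and called, and its adjusted p ranged from 0.0172 to 0.439 over all alternatives. The difference of the genotype effects was called, at -3.70 (SE 0.65, adjusted p = 0.00210).

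GFRA3, the artemin co-receptor, was near the limit of detection in culture, with 11, 10 and 11 counts in Control clones and 2, 5 and 3 counts in sgTWIST1 clones, or 0.356 to 0.483 and 0.0531 to 0.162 CPM. The ratio of the pooled counts was 3.62 in favor of Control, with a 95% exact interval for counting error of 1.74 to 8.25, and its log2(FC) of 1.79 (SE 0.66, adjusted p = 0.0654) did not pass the test. In a fit of all 4 groups it was called (1.80, adjusted p = 0.00501), and over all alternatives the adjusted p ranged from 0.00501 to 0.286. In tumors it was at 36.6, 40.6, 46.8 and 40.1 CPM in Control and at 7.64, 11.9, 15.3 and 12.9 CPM in sgTWIST1, without overlap. The mean was 3.44 times higher in Control tumors, with a log2(FC) of 1.81 (SE 0.20, adjusted p = 5.17e-05). The genotype effects in tumors and cells differed by -0.02 (SE 0.52, adjusted p = 0.976). Murine Gfra3 had at most 5 counts in a tumor.

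ALK was at 7.68, 5.16 and 7.68 CPM in Control clones 1 to 3 and at 12.4, 16.5 and 10.1 CPM in sgTWIST1 clones 1 to 3. All sgTWIST1 clones were above all Control clones, and log2(FC) was -0.93 (SE 0.26, adjusted p = 0.0298), just under the fold threshold. It was called when no filter was set on low counts (-1.05), with filterByExpr as the filter (-1.02), with all gene types (-1.06), without Control clone 1 (-1.03) and without sgTWIST1 clone 3 (-1.09). The fits with other filters or gene types moved log2(FC) of the genes of the main fit by medians of -0.11, -0.08 and -0.12. With the replicate block ALK was at -0.92 and did not pass the test (adjusted p = 0.0552). Nor did ALK pass without Control clone 3 (adjusted p = 0.0640), sgTWIST1 clone 1 (0.0722) or sgTWIST1 clone 2 (0.117). Over all alternatives in cells its log2(FC) ranged from -1.09 to -0.73, with an adjusted p of 0.00278 to 0.117. In tumors ALK was at 67.2, 63.7, 80.6 and 64.2 CPM in Control and at 41.1, 61.7, 52.7 and 45.4 CPM in sgTWIST1, with all Control tumors above all sgTWIST1 tumors. There log2(FC) was 0.48 (SE 0.14, adjusted p = 0.0172), also under the fold threshold. Over all alternatives in tumors it ranged from 0.34 to 0.59, with an adjusted p of 0.00524 to 0.115. The genotype effects thus had opposite signs, and their difference of 1.40 (SE 0.27, adjusted p = 0.00410) was called. ALK overlaps CLIP4 and 2 further genes on the other strand, and 2 genes on its own strand. The highest count of any of these genes was 4044 in a sample, whereas ALK had at most 573 counts in cells and 2582 in tumors. The strand used in counting is not given in the sources used here, so that reads of these genes cannot be told apart.

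**Figure D3:**
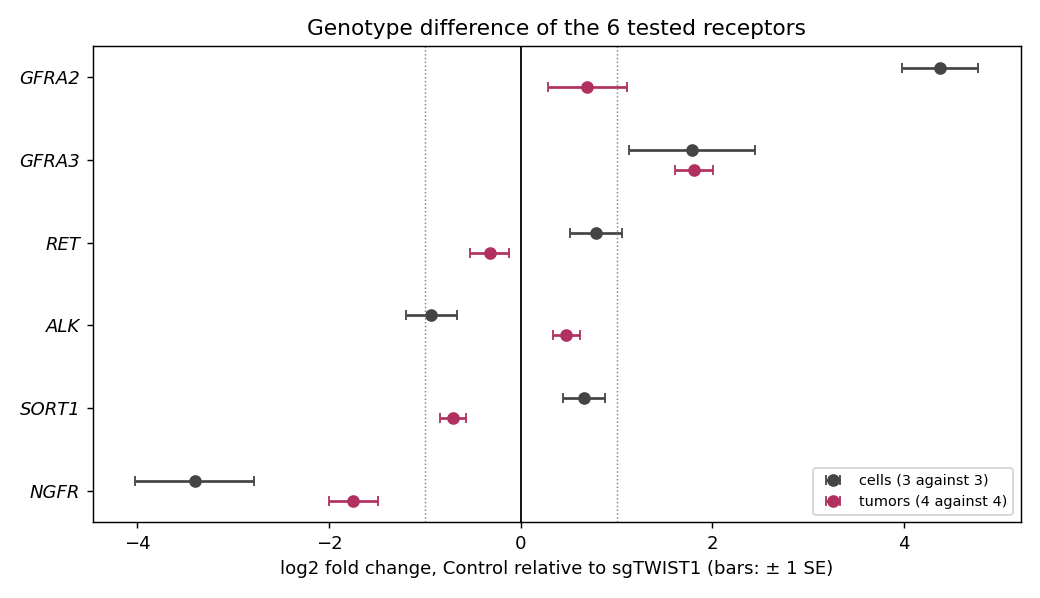
log2(FC) of the 6 tested receptors, Control relative to sgTWIST1, in cells (3 clones against 3) and in tumors (4 against 4), with bars of 1 SE on each side and dotted lines at the fold threshold of 1. NGFR lies on the sgTWIST1 side and GFRA3 on the Control side in both, whereas RET, ALK and SORT1 change sides between cells and tumors.

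The difference of the genotype effect between tumors and cells was thus called for ALK, GFRA2 and SORT1, which is 3 of the 6 tested receptors against 8.05% of all tested genes. By the Wald test of DESeq2 it was also called for RET and NGFR. Without the 2 tumor libraries that stand apart 2 receptors were called between the genotypes of the tumors and 4 for this difference, RET being added.

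The receptors below the expression threshold were TrkB, TrkC and the GDNF co-receptor. NTRK3 was at 7.61, 9.21 and 7.59 CPM in Control clones 1 to 3, from 173 to 259 counts, and at 0.610, 0.836 and 1.90 CPM in sgTWIST1 clones 1 to 3, from 23 to 35 counts. The groups did not overlap, and in a fit without the expression threshold, which called 12.8% of 19171 genes, NTRK3 was called with a log2(FC) of 2.84 (SE 0.39, adjusted p = 0.000495). That fit moved log2(FC) in cells by a median of -0.11 over the genes of the main fit. NTRK2 was at 1.84, 1.10 and 1.98 CPM in Control and 0.425, 0.836 and 1.08 CPM in sgTWIST1 clones, and GFRA1 at 1.12, 1.14 and 1.32 against 0.451, 0.548 and 0.867 CPM. Both had higher values in every Control than in every sgTWIST1 clone, and in that fit their log2(FC) of 1.00 (adjusted p = 0.127) and 0.86 (adjusted p = 0.148) did not pass the test.

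In tumors the low receptors varied among libraries of the same genotype far more than between genotypes. NTRK2 was at 1.82, 7.25, 0.156 and 1.60 CPM in Control and at 0.996, 3.61, 4.57 and 0.0362 CPM in sgTWIST1 tumors. NTRK3 was at 1.86, 5.00, 0.843 and 1.38 CPM in Control and at 1.32, 4.02, 4.21 and 0.326 CPM in sgTWIST1 tumors. GFRA1 was at 1.37, 4.46, 0.780 and 1.26 CPM in Control and at 0.996, 3.19, 3.06 and 0.0362 CPM in sgTWIST1 tumors. In a fit without the expression threshold their log2(FC) of 0.11, -0.24 and -0.01 did not pass the test (adjusted p = 0.985, 0.935 and 0.998). Within each genotype the lowest value of all 3 genes was in the library that stands apart, Control tumor 3 or sgTWIST1 tumor 4, and the 3 highest tumors were Control tumor 2 and sgTWIST1 tumors 2 and 3, which had a count in 42876 to 45192 genes. The part of library quality in these levels was not tested. The genes that overlap NTRK3, NTRK3-AS1 on the other strand and MED28P6 on its own, had at most 46 counts in any sample. Without a stated strand setting reads of NTRK3 and NTRK3-AS1 cannot be told apart. Mouse tissue held counterparts of these genes too: in Control tumor 3 murine Ntrk2 had 187 counts, 97.4% of the counts of both organisms.

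**Figure D4:**
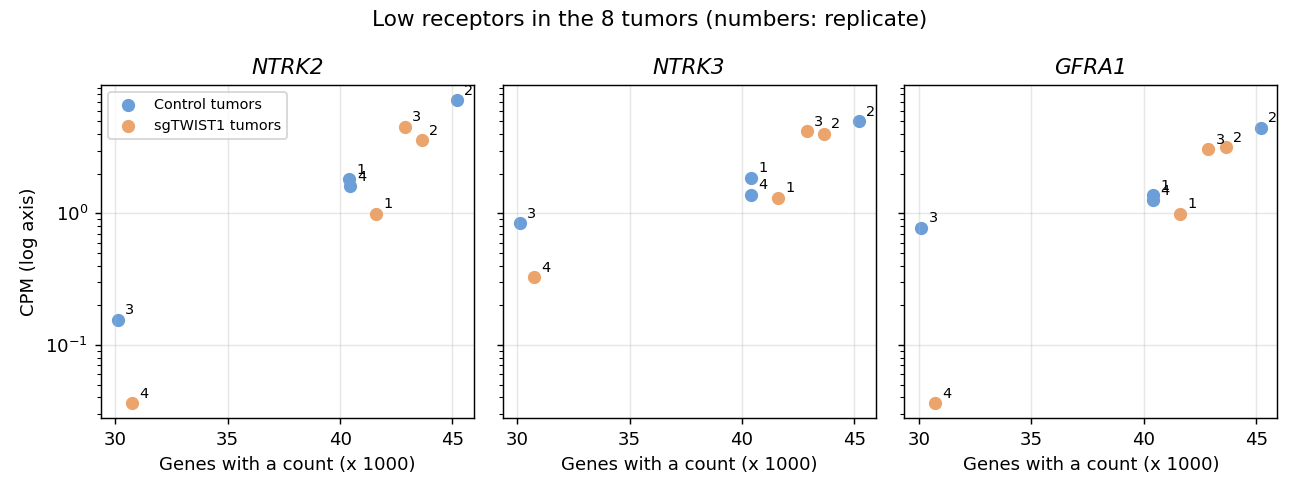
CPM (log axis) of NTRK2, NTRK3 and GFRA1 in the 8 tumors against the number of human genes with a count (x 1000), with the replicate number beside each point. Control tumor 3 and sgTWIST1 tumor 4, with 30107 and 30733 genes, hold the lowest values of their genotype, and Control tumor 2, with 45192 genes, the highest.

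Growth as a tumor went with larger differences than genotype for some receptors. Here log2 differences are tumors minus cells of 1 genotype, called at the same thresholds in a fit of all 4 groups. GFRA3 was higher in tumors by 6.66 in Control (SE 0.31, adjusted p = 2.02e-08) and by 6.68 in sgTWIST1 (SE 0.35, adjusted p = 4.34e-08). As the cells had 32 and 10 pooled counts, the ratios of pooled counts were 104 (95% exact interval for counting error 73.3 to 152) and 102 (55.0 to 212). ALK was higher in tumors by 3.33 in Control (SE 0.22, adjusted p = 2.99e-07) and by 1.94 in sgTWIST1 (SE 0.20, adjusted p = 9.26e-06). Murine Alk had at most 5 counts and murine Gfra3 at most 5 counts in any tumor.

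The other tested receptors were called in 1 genotype only. NGFR was higher in Control tumors by 2.03 (SE 0.47, adjusted p = 0.00423) and RET lower, with a difference of -1.32 (SE 0.25, adjusted p = 0.00103), or -0.92 and not called without Control clone 2. In sgTWIST1 NGFR differed by 0.40 (adjusted p = 0.474) and RET by -0.19 (adjusted p = 0.555). GFRA2 was higher in sgTWIST1 tumors by 3.14 (SE 0.51, adjusted p = 0.000312) and SORT1 by 1.26 (SE 0.19, adjusted p = 0.000175), where SORT1 was at 0.94 and not called in a fit of all gene types. In Control they differed by -0.56 (adjusted p = 0.321) and -0.12 (adjusted p = 0.625). Whether the tumor effect differs between the genotypes is the same test as the difference of the genotype effects above, which was called for GFRA2 and SORT1 but not for NGFR or RET. In each genotype 4 of 6 receptors were called, against 11.8% of tested genes in Control and 12.7% in sgTWIST1. ALK and GFRA3, called in both, met the expression threshold in tumor columns only. The threshold thus favored receptors that are high in tumors, and no statement about the receptors as a class rests on these counts. Growth in the mouse cannot be told apart from the RNA input, which was lower for tumors, nor from the extraction kit, which differed by the labels, whereas the methods of the study name the same kit for both.

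The ligands were examined from a list of 12 genes, of which 4 passed the expression threshold. Of these GDNF, MDK and PTN were called in both comparisons and NRTN in neither, against 14.5% of all tested genes in cells and 14.3% in tumors. GDNF met the threshold through Control samples only, with at most 0.187 RPKM in sgTWIST1 clones and 0.759 in sgTWIST1 tumors. The threshold thus favored a higher value of GDNF in Control, and no statement about the ligands as a class rests on these counts. GDNF, the ligand of GFRA1 and RET, was at 22.6, 17.9 and 18.3 CPM in Control clones 1 to 3 and at 0.265, 0.519 and 0.867 CPM in sgTWIST1 clones 1 to 3. The mean was 35.6 times higher in Control cells, with a log2(FC) of 5.24 (SE 0.40, adjusted p = 0.000133). In tumors GDNF was at 14.9, 16.8, 9.52 and 15.5 CPM in Control and at 0.592, 3.51, 2.64 and 0.145 CPM in sgTWIST1, where log2(FC) was 3.11 (SE 0.70, adjusted p = 0.00442). Neither comparison had overlapping groups.

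The growth factors midkine and pleiotrophin, which form a family of their own, differed in opposite directions. MDK was at 22.8, 61.3 and 28.1 CPM in Control clones and at 3.56, 3.81 and 5.36 CPM in sgTWIST1 clones, and at 177, 190, 186 and 170 CPM in Control tumors and 2.29, 17.1, 28.8 and 5.22 CPM in sgTWIST1 tumors. Its log2(FC) was 3.15 in cells (SE 0.42, adjusted p = 0.00140) and 3.82 in tumors (SE 0.62, adjusted p = 0.000691). PTN was at 80.9, 75.6 and 96.2 CPM in Control clones and at 545, 628 and 507 CPM in sgTWIST1 clones, and at 42.6, 52.1, 36.2 and 43.2 CPM in Control tumors and 309, 259, 223 and 200 CPM in sgTWIST1 tumors. Its log2(FC) was -2.73 in cells (SE 0.15, adjusted p = 3.15e-05) and -2.49 in tumors (SE 0.16, adjusted p = 2.95e-06). NRTN had mean levels of 3.09 and 1.67 CPM in Control and sgTWIST1 cells and of 0.949 and 2.14 CPM in tumors, and its log2(FC) of 0.89 in cells and -1.16 in tumors did not pass the test (adjusted p = 0.232 and 0.104). The dedicated ALK ligands ALKAL1 and ALKAL2 had group means of 0.0746 to 0.818 CPM, and BDNF, NTF3, NTF4 and ARTN of 0.0177 to 2.63 CPM, none of them above the expression threshold, like PSPN with 4.09 to 6.37 CPM.

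**Figure D5:**
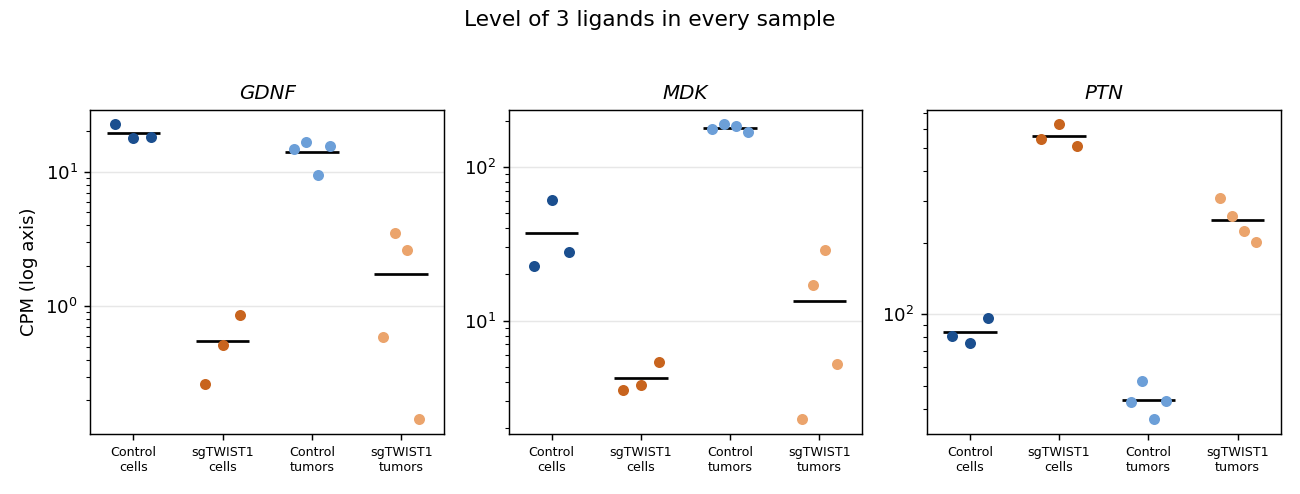
CPM (log axis, with its own range in each panel) of the ligands GDNF, MDK and PTN in every sample of the 4 groups, where each point is a clone or a tumor and the bar is the group mean. GDNF and MDK are higher in all Control samples than in all sgTWIST1 samples of the same kind, and PTN is lower.

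Over 5 lists of genes around these receptors (ligands, other receptors, adaptors, MAPK output and processing proteases) 58 of 78 genes passed the expression threshold. In cells 13 of the 58 were called, 6 higher and 7 lower in Control, against 14.5% of all tested genes, and in tumors 20 of the 58, 12 higher and 8 lower, against 14.3%. Of the 10 tested genes among other receptors, cells gave 2 calls and tumors 7. SORL1, a sorting receptor related to sortilin, was lower in Control in both, with log2(FC) of -1.02 in cells and -2.24 in tumors, and RTN4R, a Nogo receptor that can pair with NGFR, was lower in Control cells (-1.34). In tumors LTK, the receptor most closely related to ALK (-2.13), and LINGO1, a partner of NGFR (-1.95), were lower in Control, and SDC3, a syndecan that binds pleiotrophin (2.25), SORCS1, a further sorting receptor (1.75), and MAGED1, which binds NGFR (1.07), were higher.

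For the lists that follow, the share called over all tested genes was 14.5% in cells and 14.3% in tumors. No statement about a list as a whole rests on its count. Among adaptors 4 of 23 tested genes were called in cells: DOK4, a RET substrate (log2(FC) 1.87), and GAB2, a docking protein (1.16), were higher in Control, and TRAF6, which NGFR can recruit (-1.05), and SH2B2, an adaptor of receptor tyrosine kinases (-1.04), lower. In tumors 2 of the 23 were called, DOK4 (1.53) and SHC2 (-1.21). Of 15 tested genes of MAPK output 3 were called in cells, with MAFF higher in Control (1.57) and ETV1 (-1.93) and the inhibitor SPRED1 (-1.90) lower. In tumors 6 of the 15 were called, 5 of them higher in Control, including the feedback inhibitors SPRY1 (2.75) and DUSP6 (2.32), MAFF (1.53) and VGF, a neurotrophin-induced gene (1.41), while DUSP5 was lower (-1.62). The median log2(FC) of the MAPK list was 0.22 in cells and 0.43 in tumors, beside 0.0004 and 0.0044 over all tested genes. Of 6 tested processing proteases PCSK6 was called higher in Control in cells (2.30) and tumors (1.93), and FURIN, which cleaves precursor neurotrophins, lower in tumors (-1.40).

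For each tested receptor the genes whose log2 CPM followed it most closely over the 14 samples were named, as a description, since the points share 4 groups and their libraries. GFRA3 was followed by IGDCC3 (Pearson r = 0.990) and PTGIR (0.974), ALK by AUTS2 (0.977) and ALDH1A3 (0.960), GFRA2 by PDZD2 (0.968) and CHST2 (0.964), and NGFR by TRIM67 (0.968) and PALD1 (0.964). RET was followed by OXA1L (0.923) and GLB1 (0.899) and SORT1 by SDCBP (0.910) and LGR4 (0.894). No receptor of the 9 was among the genes named for another.

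In GRCh37, ALK lies on chromosome 2 (29415640 to 30144452), RET on chromosome 10 (43572512 to 43625799), GFRA3 on chromosome 5 (137588069 to 137610310), NGFR on chromosome 17 (47572655 to 47592370) and SORT1 on chromosome 1 (109852190 to 109940540), and counts cover the exons of each gene. Genes within 5 megabases gave the local background. Around ALK 66 tested genes had a median log2(FC) of -0.34 in cells and -0.38 in tumors, so that ALK, at 0.48 in tumors, lay on the other side of 0 from its neighbours. Around NTRK2 22 genes had medians of 0.69 and 0.51, and around GFRA2 49 genes had medians of 0.09 and 0.44. Around NGFR 66 genes had medians of 0.11 and 0.13, opposite in sign to NGFR itself, and around GFRA3 108 genes had -0.10 and -0.28, again opposite to GFRA3.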

How the data were processed

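RNA of 14 samples in 4 groups was sequenced by the authors as single-end reads of 100 bases after ribosomal depletion. Reads were aligned with STAR 2.5.2b to hg19 and mm10 at the same time and split by organism, with reads matching both kept in the human part, and the deposited values are expected counts per gene from RSEM 1.3.0 without normalization. The GENCODE version and the strand setting are not given in the sources used here.

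Expected counts were rounded, and batches of a clone were summed. Exon lengths came from GENCODE 44 on GRCh37. Of the protein-coding genes, those whose log2 RPKM exceeded 1 in any of 19 human columns (10889 genes) were tested with edgeR 4.0.16 in R 4.3.3, with TMM. Cells and tumors were fitted apart, and tumor against cell comparisons and the difference of genotype effects in 1 fit of all groups. Floors of 3 counts and intervals cover counting error only, as reads carry no molecular identifiers. The fits were tested on simulated data before use. Alternatives were the Wald test and size factors of DESeq2 1.42.0, other filters and gene types, other samples in the fit, the first batch alone, a replicate block, each replicate left out, and, chosen after seeing the data, the tumors without the 2 libraries that stand apart. Murine counts are given without a test. Figures were drawn with matplotlib 3.10.9.

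Deviations of same-numbered clones from their group means correlated at 0.100 to 0.316 in all 3 pairs, just over the limit of 0.1 set for pairing, while same-numbered tumors correlated at -0.191 to 0.283 and were not taken as pairs. Nothing in the labels says what a shared clone number stands for.

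The named genes are the 9 receptors, all ligands, from the other lists at most 4 called genes of highest and 4 of lowest log2(FC) in cells and in tumors, the 2 genes most like each tested receptor, and TWIST1. Some genes of these lists are not reported here. The receptors and lists were chosen with earlier results of these data known.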

Additional observations from a re-analysis of the deposited data

Results flagged for a closer look

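The receptors ALK, GFRA2 and SORT1 had genotype effects that differed between tumors and cells by the test of that difference. It was 1.40 for ALK, -3.70 for GFRA2 and -1.38 for SORT1 on the log2 scale, tumors minus cells. ALK was higher in every sgTWIST1 clone but in every Control tumor. SORT1 was higher in Control cells on average, with overlap, and in every sgTWIST1 tumor. GFRA2 was higher in Control in every clone, and the tumors overlapped.

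In the group of Control tumors GFRA1 had a highest value of 4.46 CPM, in tumor 2, far from the other 3 tumors at 0.780 to 1.37 CPM. It was the only distant sample among 18 groups examined, and chance gives such a value in about 1 of 20 groups. Tumor 2 also had the highest NTRK2 and NTRK3 of all tumors and a count in 45192 genes, the most of any sample. The part of library quality in this value was not tested.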

How the results depend on the processing

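NGFR and GFRA2 in cells, NGFR and GFRA3 in tumors, and ALK and GFRA2 for the difference of effects were called under all alternatives run. In cells 4 receptors and not 2 were called with no filter on low counts (of 9 tested, beside 2450 of 19171 genes). The same 4 were called with filterByExpr (of 8, beside 2396 of 15454) and with all gene types (of 8, beside 3175 of 21673). ALK and NTRK3 entered, and NTRK3 was not among the genes of the main fit. These fits moved log2(FC) in cells by medians of -0.11, -0.08 and -0.12, for ALK toward the fold threshold. For the difference of effects 5 receptors and not 3 were called by the Wald test of DESeq2, which called 1036 of 10889 genes against 877 in the main fit. GFRA3 was called in cells with all 4 groups in 1 fit. With all gene types SORT1 lost its call in sgTWIST1 tumors against cells (0.94), where the genes of the main fit moved by a median of -0.33. It also lost the call for the difference of effects (-1.13), where the median shift was 0.23. The adjusted p of that difference ranged from 9.72e-06 to 0.115 over all alternatives. Leaving out each replicate in turn gave 2 to 3 called receptors in cells, 2 to 3 in tumors, 3 to 4 for the difference of effects, 3 to 4 in Control tumors against cells and 4 in sgTWIST1, and 10 to 16 and 18 to 20 called genes of the surrounding lists in cells and tumors.

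The sign turned for values near 0. The difference of effects for GFRA3, -0.02, was 0.045 with filterByExpr, 0.24 with all gene types and 0.27 with batch 1 alone, and from -0.29 to 0.41 with a replicate left out. SORT1 in Control tumors against cells went from -0.31 to 0.022 with a replicate left out. The cause was not tested.

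With the replicate block 2 receptors were called in cells and 2 in tumors, and 15 and 20 genes of the lists. It changed no call of a receptor. Over all genes 1583 were called in cells, against 2450 with no filter, 2396 with filterByExpr and 3175 with all gene types, fits with more genes tested. All gene types gave 2428 calls against 1555 in tumors, 2465 against 1284 in Control tumors against cells and 2824 against 1379 in sgTWIST1.

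Depth limits GFRA3 in cells, where counts were 2 to 11, and NTRK2 and GFRA1, with 1 count in sgTWIST1 tumor 4.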
